A study of Mus musculus with 8 samples.

Results

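The genes described here encode the major histocompatibility complex (MHC) and the machinery of antigen presentation in mouse gastrocnemius, the large calf muscle. They were chosen by name: every gene symbol starting with H2-, plus B2m, Tap1, Tap2, Tapbp, Cd74, Ciita and Nlrc5. The count tables held 41 such genes among 21833 symbols, 34 of them H2- symbols. By their encoded proteins, 24 were class I chains, 9 were class II chains, 7 were the other named genes, and 1, H2-Ke6, encodes a hydroxysteroid dehydrogenase that lies inside the MHC and is no MHC chain. Of the 41, 23 had enough reads for testing.

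Muscle RNA came from male C57BL/6J mice aged 12 weeks in 2 groups of 4. Both groups had 100 µL of pooled serum from K/BxN mice injected into the peritoneum on day 0 and day 2, which transfers antibody-driven arthritis. The RA group had serum alone, and the RA+Dipy group also had 25 mg/kg of dipyridamole every day from day 0. Dipyridamole blocks nucleoside transporters, which raises adenosine outside cells. Muscle was collected on day 16. The design text counts 4 mice in each group, so each library was taken as 1 mouse, and no muscle without arthritis was analysed here. The labels conflict in places: the genotype field names K/BxN for serum recipients, and the treatment text names dipyridamole for all 8 samples. K/BxN mice carry 1 NOD-derived MHC haplotype, which C57BL/6J mice lack; the counts hold no alleles, and the description of the animals as C57BL/6J follows the design text.

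MHC class I molecules sit on nearly all nucleated cells and show peptides made inside the cell to CD8 T cells. Their heavy chains fold with beta-2 microglobulin after the TAP transporter has brought peptides into the endoplasmic reticulum, and the transactivator NLRC5 drives the genes. Class II molecules are made mainly by macrophages, dendritic cells and B cells, load peptides from endosomes with the help of the invariant chain (Cd74) and the DM chains, and depend on the transactivator CIITA. Healthy muscle fibres make little class I, and class I on fibres is a known mark of inflamed muscle.

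The regulatory sequence just upstream of these genes is shown for 5 members, chosen to show the elements that class I and class II genes have in common and those that differ, because these genes are known to be driven from short shared elements there. RefSeq promoters (GRCm38.p6) were at hand for 34 of the 41 genes and for 17 of the 23 tested. The 250 bases before the listed start are printed 5′ to 3′ in the direction of the gene, at chr17:34000348-34000597 (- strand) for H2-K1, chr17:35424600-35424849 (+ strand) for H2-Q6, chr2:122147437-122147686 (+ strand) for B2m, chr17:34287824-34288073 (- strand) for H2-Aa and chr17:34305617-34305866 (+ strand) for H2-Eb1. Capitals mark matches on either strand to CCAAT (the core of the Y box, bound by NF-Y), AANNGAAA (part of an interferon-stimulated response element), TGACGTCA (a cyclic AMP response element) and GGGGATTCC (an NF-kappaB site); TTCNNNGAA (a STAT site) was also searched.
H2-K1: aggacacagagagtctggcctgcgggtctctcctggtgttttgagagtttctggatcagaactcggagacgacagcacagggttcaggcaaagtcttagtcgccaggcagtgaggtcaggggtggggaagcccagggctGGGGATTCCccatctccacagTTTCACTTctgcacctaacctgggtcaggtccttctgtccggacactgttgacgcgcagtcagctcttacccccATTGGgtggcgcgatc
H2-Q6: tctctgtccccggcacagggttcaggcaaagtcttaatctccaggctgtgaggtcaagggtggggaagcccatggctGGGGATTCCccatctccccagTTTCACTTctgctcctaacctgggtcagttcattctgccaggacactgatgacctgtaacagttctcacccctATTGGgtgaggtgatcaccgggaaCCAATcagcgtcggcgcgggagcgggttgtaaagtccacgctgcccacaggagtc
B2m: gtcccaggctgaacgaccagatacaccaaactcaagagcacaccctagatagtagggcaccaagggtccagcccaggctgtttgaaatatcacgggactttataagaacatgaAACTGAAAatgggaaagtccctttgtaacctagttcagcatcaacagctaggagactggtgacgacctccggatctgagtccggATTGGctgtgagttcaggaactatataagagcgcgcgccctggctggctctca
H2-Aa: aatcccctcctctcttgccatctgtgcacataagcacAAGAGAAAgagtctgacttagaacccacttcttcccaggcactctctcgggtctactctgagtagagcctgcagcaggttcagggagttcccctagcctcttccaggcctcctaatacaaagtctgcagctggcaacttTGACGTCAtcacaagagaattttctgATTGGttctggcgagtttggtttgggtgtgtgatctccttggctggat
H2-Eb1: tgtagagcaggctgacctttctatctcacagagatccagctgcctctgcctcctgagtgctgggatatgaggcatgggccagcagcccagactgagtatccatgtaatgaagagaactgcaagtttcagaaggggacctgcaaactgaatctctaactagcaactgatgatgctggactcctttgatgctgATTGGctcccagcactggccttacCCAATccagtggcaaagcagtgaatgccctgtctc
A block was shared by 4 class I heavy chain genes. GGGGATTCC began 111 bases before the listed start of H2-K1, 171 before that of H2-D1, 173 before that of H2-Q6 and 133 before that of H2-Q7. The listed start of H2-D1 lies inside the gene span of GENCODE, which begins further upstream, and its sequence is not printed. TTTCACTT, the reverse complement of an AANNGAAA match, followed 21 bases on in H2-K1, H2-D1 and H2-Q6 and 20 bases on in H2-Q7. In windows of 300 bases reaching 50 past the start, GGGGATTCC was found in 4 of the 17 tested members with a promoter and in 0.259% of all 27025 listed promoters. AANNGAAA was found in 12 of the 17 and in 24.2% of all, and CCAAT in 15 of the 17 and in 37.9% of all. H2-Aa was the sole tested member with TGACGTCA (1.88% of all), 74 bases before its start, and H2-M3 the sole one with TTCNNNGAA (8.47% of all). H2-Eb1 held 2 CCAAT matches and no other. These are letter matches and no measure of binding. H2-Ab1 and Nlrc5 were among the tested genes without an entry.

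The 8 libraries held 16.4M to 50.6M counts over protein-coding genes, and fast-fibre markers summed to 175000 to 261000 CPM (counts per mega-count of the library, scaled by the TMM method), in keeping with the labelled tissue. A total of 3 counts, the upper limit that a count of 0 allows, equalled 0.0591 to 0.254 CPM. RA replicate 4 and RA+Dipy replicate 1 stood apart from the rest. Of the well-expressed genes, 40.1% and 19.2% lay over 2-fold from the gene's median over the 8 libraries, against 0.103 to 1.01% in the other 6. Fold changes and counts below come from all 8 libraries unless the 6 that remain without this pair are named. In bulk RNA, fewer cells of a type and less RNA per cell cannot be told apart.

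No MHC gene passed the test between RA+Dipy and RA. With edgeR's quasi-likelihood test and Benjamini-Hochberg adjustment over 12755 genes, 0 of the 23 tested members reached an adjusted p under 0.05, where 0% of all genes did, and the lowest adjusted p among them was 0.882. DESeq2's Wald test and limma-voom likewise called none of the members. At an unadjusted p under 0.05 there was 1 member, H2-Ke6, which was lower; 3.83% of all genes passed that mark, 1.68% higher and 2.15% lower. Fold changes are on the log2 scale, positive where RA+Dipy was higher, with their standard error (SE). It was above 0 in 11 of 23 members, with a median of -0.03, against 52.2% of all genes and a median of 0.02. Among class I chains 7 of 10 tested were above 0 (median 0.13), and among class II chains 2 of 5 (median -0.06).

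The classical class I heavy chains H2-K1 and H2-D1, which present peptides to CD8 T cells, were the most abundant of the class I heavy chains. H2-K1 (chr17:33996017-34000347, minus strand; GRCm38, GENCODE vM21) measured 113, 98.8, 114 and 151 CPM in RA replicates 1 to 4 and 108, 115, 102 and 140 CPM in RA+Dipy replicates 1 to 4. H2-D1 (chr17:35262730-35267499, plus strand) measured 141, 125, 146 and 158 CPM in RA and 103, 157, 149 and 200 CPM in RA+Dipy. The groups overlapped for both genes, with the top H2-D1 value in RA+Dipy replicate 4 and its lowest in RA+Dipy replicate 1. The means of H2-K1 were 119 ± 22.3 and 117 ± 16.6 CPM (SD, n = 4 each), a log2 fold change of -0.03 (SE 0.24). Those of H2-D1 were 142 ± 13.7 and 152 ± 39.9 CPM, a log2 fold change of 0.10 (SE 0.26). With 6 libraries the log2 fold changes were 0.15 and 0.31, and every RA+Dipy value of H2-D1 then lay above every RA value.

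B2m (chr2:122147686-122153083, plus strand) encodes beta-2 microglobulin, the light chain of every classical class I molecule. It measured 87.2, 98.7, 113 and 162 CPM in RA and 187, 112, 112 and 142 CPM in RA+Dipy. The pair of libraries that stood apart held the top value of each group, and the rest ran from 87.2 to 142 CPM. The log2 fold change was 0.27 (SE 0.29), and 0.30 (SE 0.16) with 6 libraries. As a ratio to the summed H2-K1 and H2-D1 counts, B2m was 0.886 in RA+Dipy replicate 1 and 0.344 to 0.524 in the other 7 libraries. This ratio uses CPM and is not corrected for gene length.

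The peptide-supply members, Tapbp, Tap1 and Tap2, each peaked in RA replicate 4. Tapbp, the tapasin bridge between TAP and the heavy chain, measured 42.6, 32.4, 40.4 and 121 CPM in RA and 45.7, 36.7, 39.2 and 39.0 CPM in RA+Dipy. Without RA replicate 4 and RA+Dipy replicate 1 its log2 fold change went from -0.56 (SE 0.40) to 0.00, on means of 38.5 and 38.3 CPM. Tap2, a subunit of the transporter, measured 13.8, 8.51, 13.2 and 39.6 CPM in RA and 13.7, 12.7, 10 and 11.1 CPM in RA+Dipy, and its log2 fold change went likewise from -0.66 (SE 0.43) to -0.07. For both genes the 3 other RA libraries lay in, near or under the RA+Dipy range. Tap1, the other subunit, measured 4.25, 4.81, 4.73 and 10.1 CPM in RA and 3.50, 7.02, 5.70 and 6.88 CPM in RA+Dipy. Its log2 fold change was -0.03 (SE 0.35) over all libraries; with 6 it was 0.52 (SE 0.17, unadjusted p = 0.0111 by edgeR's quasi-likelihood test, adjusted p = 0.418), and the groups did not overlap. Exons of Tapbp, Tap1 and Tap2 overlap those of neighbouring genes, Tap1 with Psmb9 on the opposite strand, and counting ignored strand. The same holds for H2-Q4, H2-T22, H2-DMa, Ciita and Nlrc5 with genes on the opposite strand. For H2-Ke6 and Cd74 it holds with genes on the same strand.

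**Figure D1:**
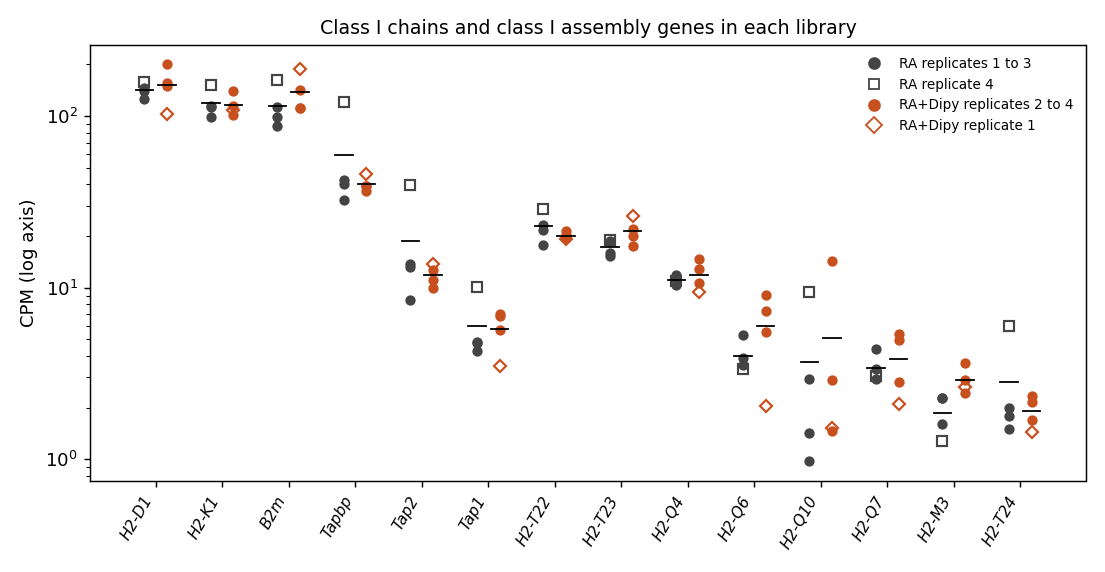
Class I chains and assembly genes in CPM (log axis) for each library; filled circles are the 6 libraries that remain without the pair that stood apart, open symbols are RA replicate 4 (square) and RA+Dipy replicate 1 (diamond), and bars are means of 4. The open square lies far above the other RA points for Tapbp, Tap2 and H2-T24, while H2-M3 alone shows no overlap between groups.

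Of the non-classical and other class I chains, 8 of 22 were tested, and H2-M3 was the member whose groups did not overlap over all 8 libraries. H2-M3, which presents formylated peptides of bacteria and mitochondria, measured 2.27, 2.28, 1.60 and 1.27 CPM in RA and 2.64, 2.88, 3.62 and 2.44 CPM in RA+Dipy. All RA+Dipy values were thus above all RA values, as they were for 1.46% of all genes tested; the reverse held for 1.26%, and either for 2.72%. The means were 1.85 ± 0.502 and 2.89 ± 0.515 CPM (SD, n = 4 each), a log2 fold change of 0.62 (SE 0.29, unadjusted p = 0.0537 by edgeR's quasi-likelihood test, adjusted p = 0.882). With 6 libraries it was 0.54 (SE 0.24, adjusted p = 0.437).

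H2-Q6, a Qa-2 family chain, measured 3.55, 3.88, 5.27 and 3.38 CPM in RA and 2.05, 9.05, 5.50 and 7.32 CPM in RA+Dipy. RA+Dipy replicate 1 was the lowest of all 8, and the other 3 RA+Dipy libraries were the highest. The log2 fold change was 0.58 (SE 0.40), and 0.80 (SE 0.23, unadjusted p = 0.00556 by edgeR's quasi-likelihood test) with 6 libraries. H2-Q7, its close relative, measured 2.81 to 5.39 CPM in those 3 RA+Dipy libraries, 2.11 CPM in RA+Dipy replicate 1 and 2.93 to 4.37 CPM in RA, a log2 fold change of 0.16 (SE 0.33), and 0.32 with 6 libraries. Of the 100-base windows in their transcripts, 13.0% for H2-Q6 and 12.0% for H2-Q7 occur word for word in another gene, so reads can pass between them. H2-Q10, known as a secreted class I chain of the liver, measured 2.93, 1.42, 0.976 and 9.38 CPM in RA and 1.52, 2.88, 1.46 and 14.4 CPM in RA+Dipy. One library in each group held the bulk of it, and its log2 fold change moved from 0.52 (SE 0.87) to -0.86 without RA+Dipy replicate 4 and to 1.77 with 6 libraries. That library also held the highest adipocyte marker sum, 1470 CPM against 401 to 889 CPM elsewhere; the part of this in the H2-Q10 value was not tested.

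The remaining class I chains had overlapping groups. H2-T23, which encodes Qa-1, the ligand of the NKG2A receptor, measured 15.2 to 19.0 CPM in RA and 17.4 to 26.3 CPM in RA+Dipy, a log2 fold change of 0.32 (SE 0.22), and 0.27 with 6 libraries. H2-T22, a ligand for some gamma-delta T cells, measured 17.7 to 28.7 and 19.1 to 21.4 CPM, a log2 fold change of -0.18 (SE 0.22), and -0.02 with 6 libraries; 31.5% of its windows occur in another gene. H2-Q4 lay at 10.3 to 11.9 and 9.44 to 14.7 CPM, and H2-T24 at 1.5 to 6.00 and 1.45 to 2.33 CPM, with its top value in RA replicate 4. Their log2 fold changes were 0.10 and -0.51, and 0.20 and 0.24 with 6 libraries.

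The class II chains that present peptide, H2-Aa, H2-Ab1 and H2-Eb1, had a shared shape in the 6 libraries and parted in RA replicate 4. H2-Ab1 (chr17:34257689-34269419, plus strand), the I-A beta chain, measured 29.1, 28.7, 32.6 and 93.0 CPM in RA and 40.3, 36.8, 44.5 and 30.8 CPM in RA+Dipy. H2-Aa (chr17:34282744-34287823, minus strand), the I-A alpha chain, measured 26.1, 31.4, 30.7 and 61.4 CPM in RA and 31.9, 37.2, 49.0 and 36.5 CPM in RA+Dipy. H2-Eb1 (chr17:34305867-34316674, plus strand), the I-E beta chain, which has no I-E alpha partner in C57BL/6 mice, measured 22.4, 24.4, 25.6 and 34.6 CPM in RA and 42.4, 31.8, 42.1 and 29.6 CPM in RA+Dipy. RA replicate 4 was the highest of all 8 for H2-Ab1 and H2-Aa, while for H2-Eb1 both RA+Dipy replicates 1 and 3 exceeded it, and RA replicates 1 to 3 were the lowest 3 libraries for H2-Eb1.

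No class II chain passed the test, and the direction of H2-Ab1 depended on RA replicate 4. Over all 8 libraries the log2 fold changes were -0.26 (SE 0.40) for H2-Ab1, 0.05 (SE 0.31) for H2-Aa and 0.45 (SE 0.24) for H2-Eb1, with an unadjusted p of 0.0935 for H2-Eb1 by edgeR's quasi-likelihood test and an adjusted p of 0.882. With 6 libraries they were 0.32 (SE 0.16), 0.49 (SE 0.16) and 0.53 (SE 0.16), and the adjusted p of H2-Eb1 and H2-Aa was 0.418. H2-Ab1 stood to H2-Eb1 at 1.04 to 1.30 in the 6 libraries, at 0.952 in RA+Dipy replicate 1 and at 2.69 in RA replicate 4. No 100-base window of these 3 genes occurs in another gene.

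Cd74, the invariant chain that holds the class II groove until the endosome, measured 78.3, 71.7, 82.3 and 194 CPM in RA and 63.0, 101, 110 and 79.3 CPM in RA+Dipy. Its groups overlapped, and RA replicate 4 was again the highest. The log2 fold change was -0.27 (SE 0.36), and 0.33 (SE 0.15) with 6 libraries. H2-DMa and H2-DMb1 encode the DM dimer that exchanges the invariant chain remnant for peptide. H2-DMa measured 3.74 to 8.87 CPM in RA and 4.68 to 6.77 CPM in RA+Dipy, a log2 fold change of -0.06 (SE 0.29), and 0.16 with 6 libraries. H2-DMb1 measured 3.37, 2.71, 3.40 and 13.6 CPM in RA and 5.48, 3.25, 4.31 and 2.92 CPM in RA+Dipy, a log2 fold change of -0.51 (SE 0.52) that became 0.15 with 6 libraries. The ratio of H2-DMb1 to H2-DMa was 0.563 to 0.724 in the 6 libraries, 0.892 in RA+Dipy replicate 1 and 1.53 in RA replicate 4.

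The transactivators were near the lower end of what was measured. Ciita measured 0.650, 1.14, 1.17 and 2.62 CPM in RA and 1.85, 0.849, 1.65 and 0.600 CPM in RA+Dipy, a log2 fold change of -0.13 (SE 0.50), and 0.11 with 6 libraries. Nlrc5 measured 0.394, 0.783, 0.859 and 1.86 CPM in RA and 0.726, 1.55, 1.15 and 1.92 CPM in RA+Dipy. Both genes overlapped between groups, and both had their top RA value in RA replicate 4. The log2 fold change of Nlrc5 was 0.56 (SE 0.49), and 1.24 (SE 0.37, unadjusted p = 0.00737 by edgeR's quasi-likelihood test, adjusted p = 0.418) with 6 libraries. H2-Ke6, the enzyme gene inside the MHC, measured 1.48, 0.783, 1.41 and 2.11 CPM in RA and 0.726, 1.07, 0.808 and 0.480 CPM in RA+Dipy. Its log2 fold change was -0.87 (SE 0.39, unadjusted p = 0.0476 by edgeR's quasi-likelihood test, adjusted p = 0.882), and -0.63 with 6 libraries; 61.6% of its windows occur in another gene.

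**Figure D2:**
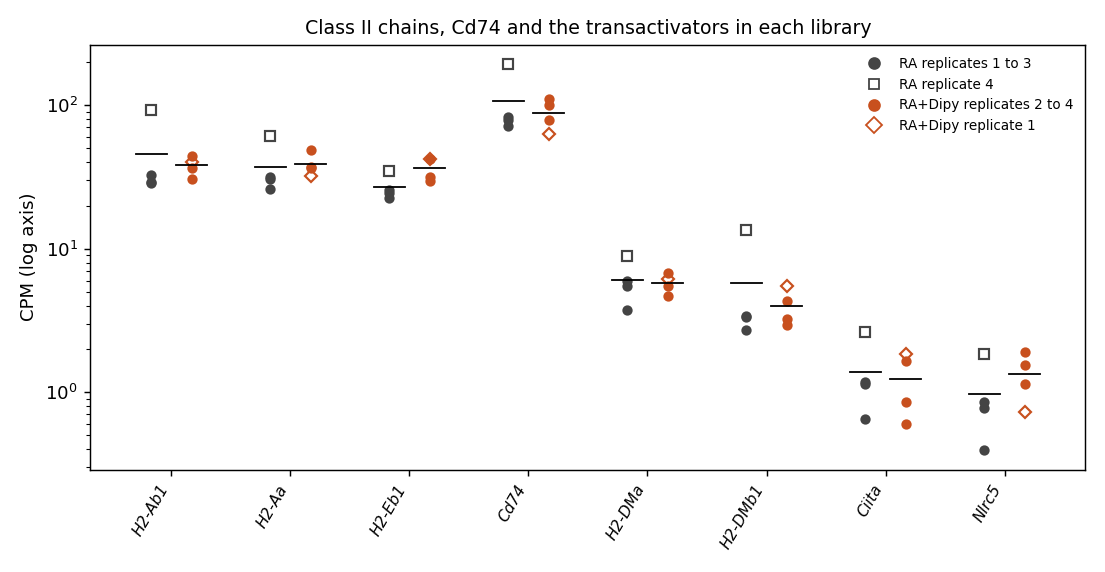
Class II chains, Cd74 and the transactivators Ciita and Nlrc5 in CPM (log axis) for each library, with symbols and bars as for class I. RA replicate 4 (open square) is the top library for Cd74, H2-Ab1, H2-Aa, H2-DMa, H2-DMb1 and Ciita, while H2-Eb1 has 2 RA+Dipy libraries at 42.1 and 42.4 above it.

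The 18 members that were not tested had few reads. H2-M10.1, H2-M10.2, H2-M10.4, H2-M10.5, H2-M10.6 and H2-M11 had no count in any library. H2-Ob, H2-DMb2 and H2-M9 summed to 65, 58 and 41 counts over 8 libraries, with 13, 9 and 8 in the highest. H2-M5 summed to 10, and H2-M1, H2-M2, H2-M10.3, H2-Oa, H2-T3, H2-Eb2, H2-Q1 and H2-Q2 to 2 to 4 each. H2-Oa and H2-Ob form the DO dimer, a modulator of DM found mainly in B cells. H2-Ob passed the count filter once the pair of libraries was left out, through its RA+Dipy libraries alone.

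With 6 libraries more members lay above RA. The test then covered 24 members, 21 of them with a log2 fold change above 0 and 3 below; the median was 0.31, against 51.3% of all genes above 0 and a median of 0.01. Class I chains had 9 of 10 above 0 (median 0.29). The 5 class II chains also tested with 8 libraries were all above 0 (median 0.32). H2-Ob, a further class II chain, was above 0 too, but it passed the count filter only through its RA+Dipy libraries. It measured 0.217 to 0.285 CPM in the RA libraries kept and 0.4 to 0.5 CPM in those of RA+Dipy. Its direction is thus no support, and it counts in the 24 and 21 above and the 8 of 24 below. An unadjusted p under 0.05 was reached by 5 of 24 members (20.8%), where 11.4% of all genes reached it, 5.96% higher and 5.45% lower: H2-Q6, Nlrc5, H2-Eb1, Tap1 and H2-Aa, all higher. The groups did not overlap, with RA+Dipy higher, for 8 of 24 members (33.3%), where that held for 7.92% of all genes and the reverse for 6.21%: H2-M3, H2-Aa, Tap1, H2-Ob, H2-Eb1, H2-Q6, H2-D1 and Nlrc5. No member and no other gene had an adjusted p under 0.05 by edgeR's quasi-likelihood test with 6 libraries. The members come from the same 6 muscles, so they are not independent of each other. In these 6 libraries 14 of 14 macrophage markers (median 0.69), 7 of 7 adipocyte markers (median 1.96) and 7 of 8 fibroblast markers (median 0.43) also had log2 fold changes above 0, and 8 of 8 Schwann cell markers lay below 0 (median -0.48). Of dendritic cell markers 4 of 8 were above 0 (median 0.20). The part of these cells in the members' values was not tested.

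**Figure D3:**
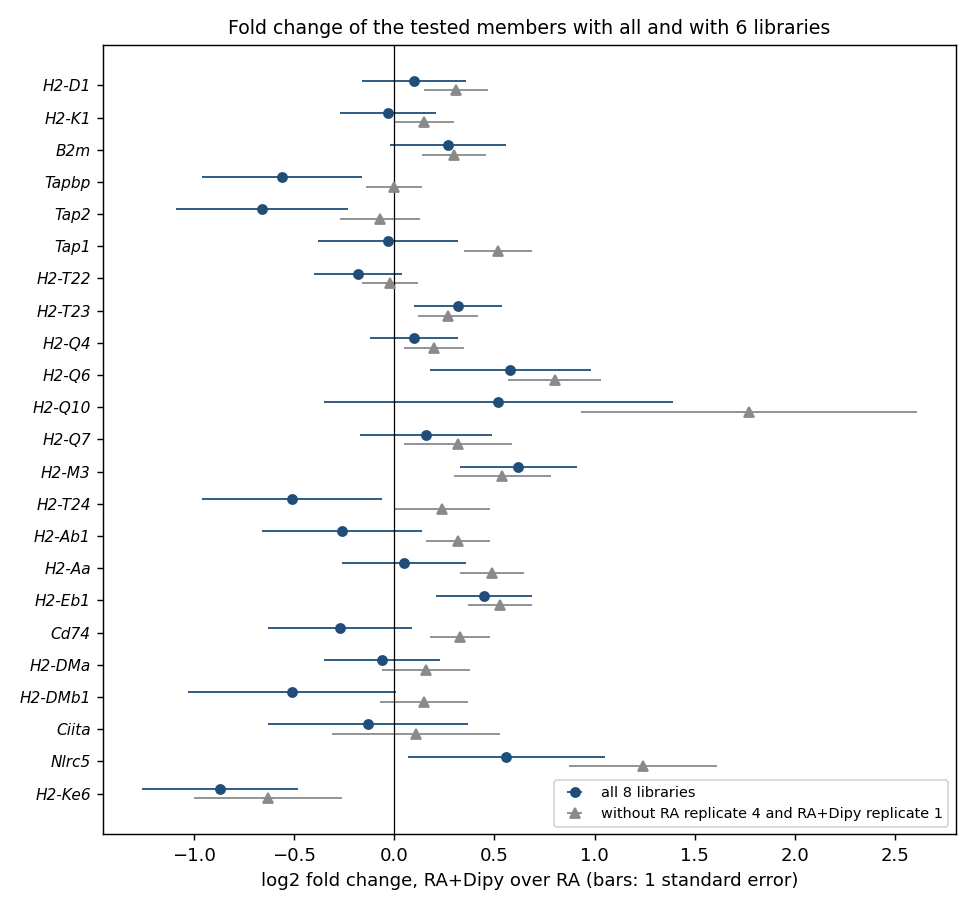
Log2 fold change (RA+Dipy over RA) of the 23 tested members, with 1 SE on either side, for all 8 libraries (circles) and without RA replicate 4 and RA+Dipy replicate 1 (triangles). H2-Ab1, Cd74, H2-DMb1, H2-T24 and Tap1 lie below 0 with 8 libraries and above 0 with 6; Tapbp and Tap2 move from about -0.6 to about 0.

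Per kilobase of exon, with all annotated exons of a gene merged, B2m led. It had 134 ± 38.2 CPM per kb in the RA libraries and 161 ± 41.5 under dipyridamole (SD, n = 4 each). Cd74 followed at 63.4 ± 34.7 and 52.5 ± 12.6, then H2-D1 at 55.2 ± 5.33 and 59.0 ± 15.5, and H2-K1 at 40.5 ± 7.59 and 39.7 ± 5.64. Cd74 and H2-D1 did not differ beyond their spread. H2-Ab1, Tapbp, H2-Eb1 and H2-Aa made up the next tier, from 9.84 ± 4.25 (H2-Aa) to 17.8 ± 12.3 (H2-Ab1) in RA, with ranges that overlapped. The remaining tested class I chains lay from 0.803 (H2-Q7) to 6.67 (H2-T22) in RA, and Ciita and Nlrc5, at 0.146 and 0.115, were the lowest of the 23 tested members. Merged exons can exceed the longest protein-coding transcript, at 3798 against 1128 bases for H2-Aa and 2938 against 1619 for H2-K1. For B2m both were 860 bases, so the order of genes below B2m depends on the length used.

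Summed per kilobase, the class I chains gave 115, 102, 119 and 140 CPM per kb in RA and 99.8, 127, 117 and 154 in RA+Dipy, and H2-K1 with H2-D1 made up 77.0 to 81.2% of each sum. The class II chains gave 33.6, 34.8, 37.8 and 81.3 in RA and 51.3, 44.1, 56.7 and 40.2 in RA+Dipy, with 86.2 to 91.8% from H2-Aa, H2-Ab1 and H2-Eb1. RA replicates 1 to 3 were the lowest 3 libraries for class II and RA replicate 4 the highest. The class II mean was 46.9 ± 23.0 in RA and 48.1 ± 7.38 in RA+Dipy, a log2 ratio of 0.04; without the pair it was 35.4 against 47.0, a log2 ratio of 0.41. For class I the log2 ratio was 0.07, and 0.25 without the pair. Class II stood at 29.2 to 34.2% of class I in RA replicates 1 to 3, at 58.0% in RA replicate 4, and at 51.4, 34.7, 48.5 and 26.0% in RA+Dipy. The size of all these shares depends on the use of merged exons. Their length exceeds the longest protein-coding transcript by more for H2-Aa (3798 against 1128 bases) than for H2-D1 (2579 against 2102 bases).

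Markers of the cells known to carry class II, and of T and NK cells, were summed in the same libraries. The 14 macrophage markers summed to 137, 203, 202 and 330 CPM in RA and to 380, 182, 346 and 324 CPM in RA+Dipy; 13 of 14 were above 0, with a median log2 fold change of 0.62, and 5 had an unadjusted p under 0.05 by edgeR's quasi-likelihood test, where 3.83% of all genes did. With 6 libraries 8 of 14 did (57.1%), where 11.4% of all genes did, all 8 higher. The 11 dendritic cell markers summed to 16.7 to 32.5 CPM in RA and 18.7 to 28.2 CPM in RA+Dipy, with Zbtb46 and Clec10a the most abundant. The 8 B cell markers summed to 0.605 to 1.27 and 0.577 to 1.19 CPM, and none passed the count filter. The 13 T and NK cell markers summed to 1.64 to 3.55 and 1.52 to 2.93 CPM. Of these 13, 2 passed the count filter, Cd3e and Cd2. Cd3e was the most abundant, at 1.1 to 2.28 CPM in RA and 0.924 to 1.42 CPM in RA+Dipy. The log2 fold changes of Cd3e and Cd2 were -0.51 (SE 0.34) and 0.18 (SE 0.66). RA replicate 4 had the highest RA sum for each of these 4 lists. The part of macrophage number in the class II values was not tested.

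**Figure D4:**
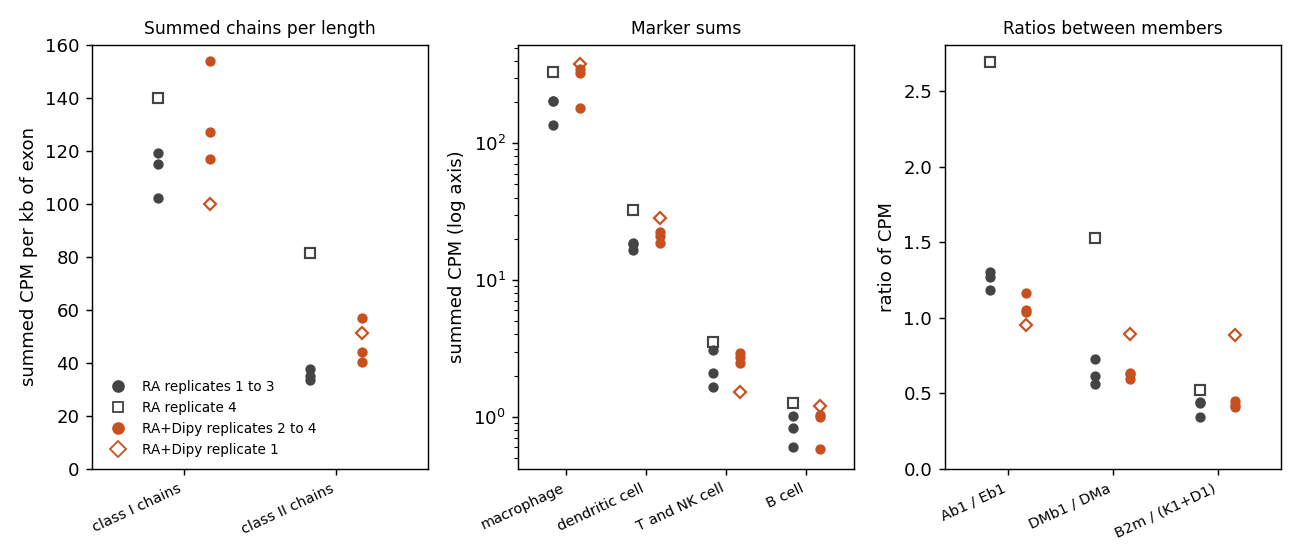
Left, class I and class II chains summed per kilobase of exon; middle, marker sums of 4 immune cell types (log axis); right, ratios of CPM between members, each for every library with the symbols of the class I plot. RA replicate 4 (open square) is at 81.3 for class II and at 2.69 for H2-Ab1 over H2-Eb1, and RA+Dipy replicate 1 (open diamond) at 0.886 for B2m over H2-K1 plus H2-D1.

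The members moved unevenly in the pair of libraries that stood apart, and mostly upward in RA replicate 4. There all tested members but H2-M3, H2-Q6, H2-Q7 and H2-Q4 lay above the median of the other 6 libraries. In RA+Dipy replicate 1 members lay on both sides of it. The share of all genes above that median was not computed. In RA replicate 4 H2-Q10, H2-DMb1, Tap2, H2-T24 and Tapbp were 4.32, 4.11, 3.33, 3.17 and 3.09 times the median of the other 6 libraries. H2-D1 and H2-Eb1 were 1.07 and 1.25 times it there, while H2-M3 and H2-Q6 were 0.537 and 0.627 times it. In RA+Dipy replicate 1 B2m, H2-DMb1 and H2-Eb1 were 1.67, 1.66 and 1.53 times that median, and H2-Q6, H2-Q7 and H2-D1 were 0.38, 0.547 and 0.699 times it. Across the 23 members, the deviation was set against the GC content of the longest protein-coding transcript. Spearman's rho was 0.16 for RA replicate 4 and -0.24 for RA+Dipy replicate 1, and neither value was tested. Genes of 1 library are not independent replicates.

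**Figure D5:**
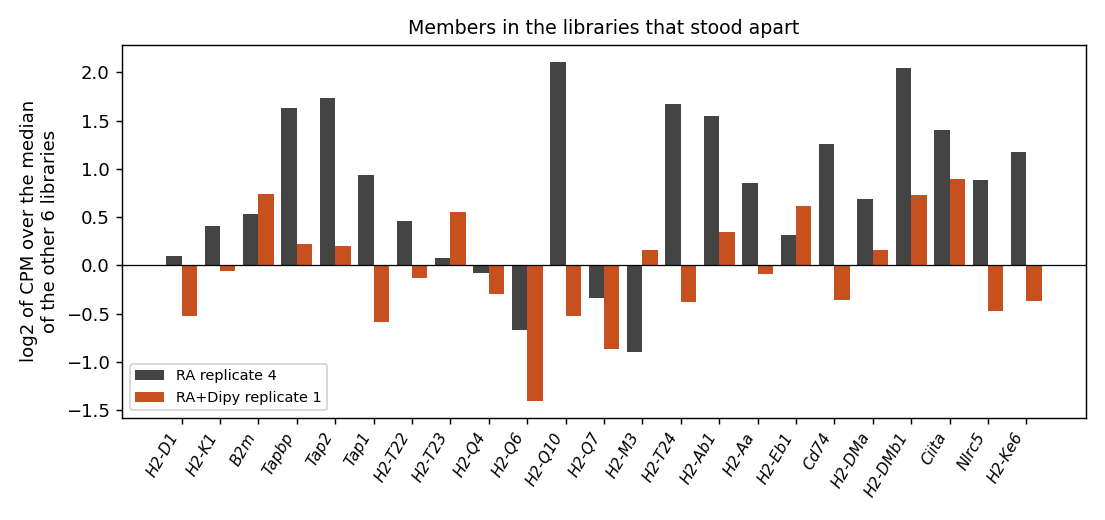
CPM of each tested member in RA replicate 4 and RA+Dipy replicate 1, as log2 of the ratio to the median of the other 6 libraries. Bars of RA replicate 4 reach above 2 for H2-Q10 and H2-DMb1 and lie below 0 for H2-M3, H2-Q6, H2-Q7 and H2-Q4.

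Beyond the members, 44 of 49 listed genes of antigen presentation and its control were tested; 27 were above 0 and 17 below, with a median of 0.05. None had an adjusted p under 0.05 by edgeR's quasi-likelihood test (limma-voom with library weights, which calls 1.62% of all genes and no MHC member, called 3). An unadjusted p under 0.05 was reached by 2 of 44, where 3.83% of all genes reached it, a share close to that of the list. The first, Ctss, encodes cathepsin S, the protease that trims the invariant chain in antigen-presenting cells. It measured 5.40, 9.90, 8.47 and 7.52 CPM in RA and 29.7, 12.1, 22.9 and 20.0 CPM in RA+Dipy, with no overlap, and a log2 fold change of 1.44 (SE 0.32, adjusted p = 0.882), and 1.23 (adjusted p = 0.418) with 6 libraries. The second, Socs1, encodes an inhibitor of interferon signalling. It measured 3.17, 4.81, 4.65 and 8.54 CPM in RA and 1.45, 3.40, 1.96 and 1.16 CPM in RA+Dipy, a log2 fold change of -1.38 (SE 0.41, adjusted p = 0.882), and -0.93 (adjusted p = 0.418) with 6 libraries; RA replicate 1 lay inside the RA+Dipy range.

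By list, 7 of 11 genes of class I peptide supply were above 0 (median 0.05). The immunoproteasome subunits Psmb8 and Psmb9 were high in both libraries that stood apart, at 17.9 and 13.9 CPM for RA replicate 4, then 16.2 and 8.58 CPM for RA+Dipy replicate 1, and their log2 fold changes were 0.05 and -0.17, and 0.22 and 0.27 with 6 libraries. In class II processing 5 of 7 were above 0 (median 0.17). Among MHC transcription factors 6 of 13 were above 0 (median -0.00). Rfx5, a subunit of the X box binding complex, measured 1.5, 2.42, 1.48 and 0.254 CPM in RA and 0.660, 3.10, 3.73 and 3.52 CPM in RA+Dipy. The pair that stood apart held its lowest values, and its log2 fold change was 0.93 (SE 0.59), and 0.95 (SE 0.25) with 6 libraries. Irf1, a class I activator, lay at 10.7 to 14.2 and 10.2 to 12.8 CPM. In interferon gamma signalling 5 of 8 were above 0 (median 0.30), and Ifng had no count in any library. Among MHC class I-like genes 4 of 5 were above 0 (median 0.08); Fcgrt, the neonatal Fc receptor, was at 289 CPM in RA replicate 4 and 54.2 to 86.3 CPM elsewhere. With 6 libraries 29 of the 44 genes were above 0 (median 0.13), and 6 had an unadjusted p under 0.05 (13.6%, where 11.4% of all genes did), 5 higher and 1 lower.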

How the data were processed

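Poly(A) RNA of 8 gastrocnemius libraries was read as single reads of 100 bases. The authors deposited raw counts per protein-coding gene; per the submitters' processing notes and the series' design text, reads were trimmed with fastp 0.20.0, mapped by STAR 2.7.3a on GRCm38.p6, then assigned to genes by HTSeq without regard to strand. The treatment of reads that map to several genes and the annotation release are not given in the sources used here, and near-identical H2 genes may share reads. The labels name TruSeq and the design text a NEBNext directional kit. Of 21859 lines, 24 symbols on more than 1 line were summed. edgeR 4.0.16 (R 4.3.3) filtered genes with filterByExpr at a minimum count of 10 (12755 tested), scaled by TMM and ran the robust two-sided quasi-likelihood test with group as sole term; Benjamini-Hochberg adjusted p-values cover all genes tested, with a threshold of 0.05. Exon lengths, overlaps and shared 100-base windows came from GENCODE vM21. Code was tested on simulated data with less spread than these 8 libraries and no library that stood apart. That test gives no measure of what could be detected here. Members and lists were chosen with earlier results of these data known. Every tested member was named, with, from each pathway list, up to 3 genes of smallest unadjusted p plus Ctss, Psmb8, Psmb9 and Irf1 by name; some items the rule covers are not reported here. DESeq2 1.42.0 and limma 3.58.1 gave alternatives, beside other scalings, filters, a block and left-out libraries. No pair of libraries of the same group agreed within counting noise (lowest chi-square per degree of freedom 27.7). Pairs across the groups were not compared.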

Additional observations from a re-analysis of the deposited data

Results flagged for a closer look

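In groups of 4 libraries, a highest or lowest value was singled out where its gap to the next as a share of the whole range exceeded the critical value of Dixon for 4 values; chance does so in about 1 group in 20, and 98 groups were examined. RA replicate 4 was the highest RA library in 13 cases: Tapbp (121 CPM), Cd74 (194 CPM), H2-Aa (61.4 CPM), Tap1 (10.1 CPM), H2-T24 (6.00 CPM), H2-Ab1 (93.0 CPM), H2-DMb1 (13.6 CPM), Fcgrt (289 CPM), Psmb8 (17.9 CPM), Psmb9 (13.9 CPM), the summed class II level (81.3 CPM per kb), H2-Ab1 over H2-Eb1 (2.69) and H2-DMb1 over H2-DMa (1.53). RA+Dipy replicate 1 was the highest of its group for Pdia3 (134 CPM), Ctsd (1150 CPM), Psmb8 (16.2 CPM), Psmb9 (8.58 CPM), B2m over H2-K1 plus H2-D1 (0.886) and H2-DMb1 over H2-DMa (0.892). RA+Dipy replicate 4 was the highest for H2-Q10 (14.4 CPM) and Cd1d1 (5.44 CPM), and RA replicate 3 for Pdia3 (82.1 CPM). RA replicate 4 departed far beyond this list, with 40.1% of its well-expressed genes more than 2-fold off their median. For RA+Dipy replicate 1 that share was 19.2%. How often genes at large meet the criterion of Dixon was not computed, so the flags do not set MHC genes apart. The class II sum and the H2-Ab1 and H2-DMb1 ratios of RA replicate 4 contain genes flagged there and are not separate cases.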

How the results depend on the processing

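No member passed an adjusted p of 0.05 in any of 17 alternatives, 8 of which left out 1 library each, and H2-M3, H2-T22, H2-Eb1, B2m, H2-T23, H2-Q6, H2-Ke6 and Nlrc5 kept 1 direction in all 17. With library weights in limma-voom, 206 genes passed (1.62% of those tested), 3 of them in the pathway lists (Rfx5, Ctss and Stat2). The class II median, -0.06 over 5 members, was over the same 5 members 0.32 with library weights and 0.32 without both libraries that stood apart. Directions reversed with library weights for Ciita (0.33), Cd74 (0.29), Tap1 (0.41), H2-DMa (0.14), H2-T24 (0.018), H2-Q7 (-0.035), H2-Ab1 (0.32), H2-DMb1 (0.17), Psmb9 (0.17) and Irf1 (0.057). Without both libraries they reversed for Ciita (0.11), Tapbp (0.0025), Cd74 (0.33), Tap1 (0.52), H2-DMa (0.16), H2-T24 (0.24), H2-K1 (0.15), H2-Ab1 (0.32), H2-DMb1 (0.15), Psmb9 (0.27) and Irf1 (0.068). Upper-quartile scaling reversed Tap1 (0.050), H2-DMa (0.013) and H2-K1 (0.037), and limma-voom without weights Tap1 (0.064), H2-DMa (0.016) and Psmb9 (0.11). The cause was not tested. Leaving out RA replicate 4 reversed 10 members, and leaving out libraries singly put the class II median between -0.23 and 0.35. Over the fits without 1 library or without both that stood apart, log2 fold changes spanned -0.39 to 0.34 for Ciita, -0.75 to 0.077 for Tapbp, -0.90 to 0.013 for Tap2, -0.42 to 0.33 for Cd74, -0.019 to 0.20 for H2-Q4, -0.088 to 0.49 for H2-Aa, -0.16 to 0.52 for Tap1, -0.23 to 0.19 for H2-DMa, -0.72 to 0.24 for H2-T24, -0.051 to 0.36 for H2-Q7, -0.13 to 0.15 for H2-K1, -0.86 to 1.77 for H2-Q10, -0.065 to 0.31 for H2-D1, -0.43 to 0.35 for H2-Ab1, -0.74 to 0.34 for H2-DMb1, -1.05 to 0.0058 for Fcgrt, -0.060 to 0.45 for Canx, -0.95 to 0.21 for Ctsd, -0.37 to 0.66 for Psmb8, -0.45 to 0.57 for Psmb9 and -0.14 to 0.068 for Irf1.

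With the replicate block 0 genes passed, as without it, and Psmb9 alone among the named genes reversed (0.080). Same-numbered libraries did not deviate together: the correlations were -0.279, 0.141, 0.225 and -0.378, and 1 of 4 was highest with its own number.

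Members under about 1 CPM rest on few reads. For any tested member, a difference of the size of its SE could not be detected with these libraries, and larger ones could be missed too. Outside the members, Ctss at 1.44 (SE 0.32) and Socs1 at -1.38 (SE 0.41) had an adjusted p of 0.882 by edgeR's quasi-likelihood test. A member that was not called is thus not shown to be unchanged.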
